A study of Homo sapiens with 6 samples.

Results

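BCL2, BCL2A1 and BID, 3 genes of the BCL2 family of apoptosis regulators, were taken by gene name from the deposited comparison of SETD8 knockout with control cells, and each name matched 1 of the 7983 genes in that table. The cells were Kasumi-1, a human acute myeloid leukaemia line with the t(8;21) translocation that fuses RUNX1 to RUNX1T1. SETD8, whose current symbol is KMT5A, is the methyltransferase that adds a single methyl group to lysine 20 of histone H4. The tested cells carried a SETD8 knockout made with CRISPR/Cas9 and guide RNA against SETD8 (sgSETD8, called SETD8 knockout 1 to 3). The control cells were labelled WT and had received sgNT, guide RNA without a target (control 1 to 3). All were grown in the same medium, and poly(A) RNA was sequenced from 3 libraries a group. The labels do not say whether the knockout cells were a clone or a pool, or whether the numbered libraries were separate cultures, so the p-values reflect spread among libraries that may be only technical.

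BCL2 family proteins decide whether the outer mitochondrial membrane is opened during apoptosis. The anti-apoptotic members BCL2, BCL2A1 (also called BFL-1), BCL2L1, BCL2L2 and MCL1 bind and hold back the pore formers BAX and BAK1, while BH3-only proteins such as BID, BBC3, PMAIP1 and BIK promote pore opening by binding either side. BID is cut by caspase-8 downstream of death receptors, which links those receptors to mitochondria. BCL2 is the target of the drug venetoclax, which is used in acute myeloid leukaemia.

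The table lists only genes whose unadjusted p in the authors' deposited table was at most 0.049998, so the members and every other gene below had already passed a test on these libraries, and genes outside the table are not analysed here. Reads in the listed genes were 11721821 to 12557974 in the knockout libraries and 10966349 to 11690249 in the control libraries. Normalized counts are reads divided by a size factor of the library. KMT5A had 880, 933 and 939 normalized counts in SETD8 knockout libraries, against 1191, 1212 and 1255 in control libraries. These did not overlap, but neither did those of 95.4% of the tested genes. KMT5A fell 1.33-fold, at percentile 36.0 of the tested genes by size of log2 fold change. The 8 myeloid blast markers CD34, KIT, CD33, MPO, RUNX1, RUNX1T1, SPI1 and CEBPA were all listed, with a summed normalized count of 66391 to 68367 in knockout and 88220 to 91544 in control libraries. Of these 8, KIT (43551 in knockout and 60704 in control libraries) and MPO (1541 in knockout and 12255 in control libraries) were called lower. CD33, RUNX1, SPI1 and CEBPA were called higher, and CD34 and RUNX1T1 were not called (calls are at an adjusted p below 0.05). By the authors' own adjusted p CD34 passed this threshold (0.036) and RUNX1T1 did not (0.054). Of 4 B-cell markers 3 were listed and all 3 were called higher (summed 801 to 886 in knockout and 251 to 271 in control libraries), of 5 T-cell markers 2 were listed (1265 to 1517 in knockout and 1015 to 1059 in control libraries; CD2 was at 0 in the control libraries), of 5 epithelial markers EPCAM alone was listed (1857 to 2044 in knockout and 1277 to 1432 in control libraries), and none of 5 erythroid markers was listed. The part of these shifts in the results below was not tested.

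The 3 genes lie on different chromosomes, all on the minus strand (hg38, coordinates of the deposited table). BCL2 (ENSG00000171791) spans chromosome 18 from 63123346 to 63320128. The longest coding GENCODE transcript of BCL2 has 2 exons. Over all its transcripts BCL2 has 11765 bases of exons in a span of 196783. BCL2A1 (ENSG00000140379) is compact, on chromosome 15 from 79960889 to 79971446. It has 2 exons in its longest coding transcript and 1089 bases of exons over all its transcripts. BID (ENSG00000015475) lies on chromosome 22 from 17734138 to 17774770, with 6 exons in its longest coding transcript and 4446 bases of exons over all its transcripts. BCL2 overlaps an antisense RNA in the table, AC022726.2, which averaged 2.27 normalized counts in knockout and 10.9 in control libraries and was not tested. BID overlaps a microRNA gene and BCL2A1 no annotated gene.

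The bases just before each gene's start in RefSeq (GRCh38.p14) are shown because the members that fell, BCL2 and BCL2A1, start from windows of different makeup, and capitals mark GAGGAA or its reverse complement, a core within the sites read by SPI1 (PU.1) and related ETS factors. The windows cover 250 bases each on the minus strand, at chr18:63319770-63320019 for BCL2, chr15:79971197-79971446 for BCL2A1 and chr22:17774470-17774719 for BID, for which RefSeq gives 5 starts and the first listed is shown. All 3 windows lie inside the gene spans given above, whose annotated starts are further upstream.
BCL2: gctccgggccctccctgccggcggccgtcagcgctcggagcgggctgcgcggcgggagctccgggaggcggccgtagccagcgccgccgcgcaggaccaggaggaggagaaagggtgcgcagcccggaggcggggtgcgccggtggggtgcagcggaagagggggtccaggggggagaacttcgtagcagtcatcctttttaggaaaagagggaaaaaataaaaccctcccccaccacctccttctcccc
BCL2A1: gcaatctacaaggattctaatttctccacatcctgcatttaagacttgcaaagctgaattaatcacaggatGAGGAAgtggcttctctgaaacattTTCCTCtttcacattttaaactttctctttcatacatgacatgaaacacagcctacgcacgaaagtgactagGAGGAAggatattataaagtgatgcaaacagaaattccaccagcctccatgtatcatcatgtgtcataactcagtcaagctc
BID: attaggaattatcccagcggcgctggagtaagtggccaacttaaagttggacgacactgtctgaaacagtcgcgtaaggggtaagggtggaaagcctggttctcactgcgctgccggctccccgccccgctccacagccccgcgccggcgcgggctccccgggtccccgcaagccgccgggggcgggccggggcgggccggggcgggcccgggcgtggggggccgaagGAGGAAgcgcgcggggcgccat

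GAGGAA, searched on both strands, was found 3 times before BCL2A1, 1 time before BID and 0 times before BCL2, and 23.6% of 35116 RefSeq windows of the same length hold it. The BCL2 and BID windows are rich in G and C (70.0% and 72.0%, with 24 and 30 CG dinucleotides), against 38.8% and 2 CG dinucleotides for BCL2A1 and medians of 58.0% and 11 over all windows. The GC box GGGCGG was found 4 times before BID and in neither of the other 2 windows, against 42.6% of all windows. TATAA was found on both strands, at overlapping bases, before BCL2A1 only, against 18.9% of all windows. The STAT motif TTCNNNGAA was found 1 time, before BCL2A1 (6.57% of all windows), and the NF-kB consensus in none of the 3 (9.96% of all windows). These are matches of letters and not shown to be sites.

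BCL2 was lower in every knockout library. Its normalized counts were 3392, 3601 and 3758 in SETD8 knockout libraries, against 6894, 6463 and 6586 in control libraries. The groups were far apart and their spread was small, with coefficients of variation of 5.13% in knockout and 3.34% in control libraries. BCL2 fell 1.86-fold (log2 fold change -0.89, SE 0.057, 95% interval -1.01 to -0.77; limma-trend, Benjamini-Hochberg adjusted p = 2.35e-11). These are bulk samples, in which fewer cells of a type and less RNA per cell cannot be told apart.

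BCL2A1, a short-lived anti-apoptotic protein of blood cells whose gene is a known target of NF-kB, scattered most between libraries of the 3. Its normalized counts were 87.6, 53.6 and 68.2 in SETD8 knockout libraries, against 158, 168 and 234 in control libraries. The highest knockout library stayed below the lowest control library, but both groups scattered, with coefficients of variation of 24.4% in knockout and 22.0% in control libraries. BCL2A1 fell 2.67-fold (log2 fold change -1.41, SE 0.21, 95% interval -1.85 to -0.98, adjusted p = 7.98e-06). The estimate rests on 54 to 84 reads in knockout and 155 to 236 reads in control libraries, the fewest of the 3 members, and its interval was also the widest.

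BID was higher in every knockout library. Its normalized counts were 1311, 1337 and 1399 in SETD8 knockout libraries, against 714, 787 and 813 in control libraries. The groups did not overlap, and coefficients of variation were 3.35% in knockout and 6.60% in control libraries. BID rose 1.75-fold (log2 fold change 0.81, SE 0.074, 95% interval 0.65 to 0.96, adjusted p = 8.92e-09). With the median change of the other tested genes within 5 Mb taken out, the log2 fold change of BID was 0.45 (adjusted p = 6.17e-05).

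**Figure D1:**
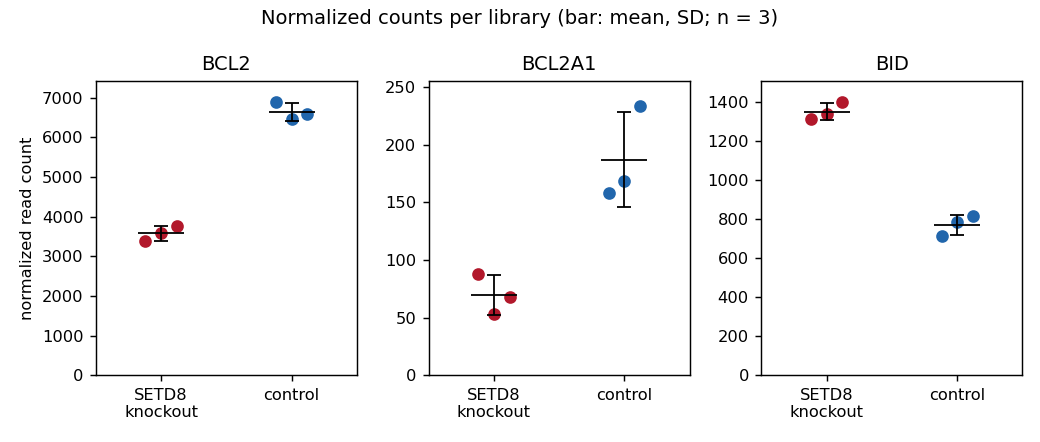
Normalized read counts (y axes, from 0, a different range in each panel) of BCL2, BCL2A1 and BID in the SETD8 knockout and control libraries, with points for libraries and bars for mean and SD (n = 3). Knockout libraries lie below all control libraries for BCL2 (3392 to 3758 against 6463 to 6894) and BCL2A1 (53.6 to 87.6 against 158 to 234) and above them for BID (1311 to 1399 against 714 to 813).

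All 3 members were called, but so were 94.1% of the 7516 tested genes, with 47.3% higher and 46.7% lower in knockout, and 95.4% did not overlap between the groups (48% above and 47.4% below the control libraries). The calls alone therefore do not set the members apart from the other listed genes. By size of log2 fold change regardless of sign, BCL2A1 stood at percentile 89.7 of the tested genes, BCL2 at 76.3 and BID at 72.2, where the median size was 0.52. In the authors' deposited table the log2 fold changes were -0.89 for BCL2, -1.42 for BCL2A1 and 0.81 for BID, with adjusted p of 2.75e-51, 1.40e-07 and 6.82e-19.

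Levels of different genes were compared as normalized counts per kilobase of exon, on which scale BCL2 and BID came to the same level in knockout cells. BCL2 averaged 305 ± 15.6 per kb in knockout and 565 ± 18.9 in control libraries (SD, n = 3 each). BID averaged 303 ± 10.1 per kb in knockout and 173 ± 11.5 in control libraries. BCL2A1 averaged 64.1 ± 15.6 per kb in knockout and 172 ± 37.7 in control libraries, so in control cells its range overlapped that of BID. These levels assume that reads cover the whole exon model of each gene, which was not tested.

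Among the 16 family genes in the table, MCL1 had the highest level per kb in both groups, at 821 ± 20.3 in knockout and 947 ± 48.9 in control libraries. In knockout libraries BCL2 was 8th and BID 9th, and BID also overlapped BCL2L12 after it, while BCL2A1 was 14th and overlapped BBC3. In control libraries BCL2 was 4th and overlapped neither BNIP3L above it nor BNIP3 below it. There BID, BCL2A1, BCL2L2 and BBC3 followed each other from the 12th to the 15th place, each overlapping the next. Among all tested genes BCL2 stood at percentile 74.4 of level per kb in knockout and 88.2 in control, BID at 74.3 in knockout and 59.0 in control, and BCL2A1 at 32.6 in knockout and 58.7 in control.

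**Figure D2:**
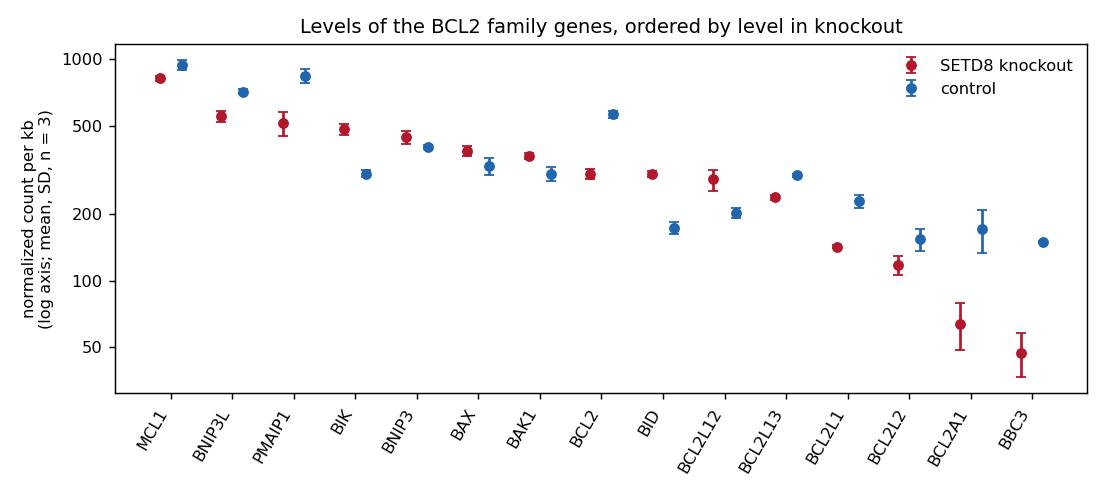
Normalized counts per kilobase of exon (y axis, log scale; mean and SD, n = 3) of 15 BCL2 family genes in SETD8 knockout (left point of each pair) and control libraries, ordered by the knockout level. BCL2 at 305 and BID at 303 per kb are side by side in knockout cells, where control cells have 565 for BCL2 and 173 for BID; BCL2L14, near 0, is left out.

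Ratios of anti- to pro-apoptotic transcripts were taken within each library, so library scaling cannot move them, and they are given as descriptions with no test. Per kb, BCL2 over BID was 0.977, 1.02 and 1.02 in SETD8 knockout libraries, against 3.65, 3.10 and 3.06 in control libraries. Per kb the ratio was near 1 in every knockout library and above 3 in every control library, 3.25-fold lower in knockout (log2 change -1.70). Not divided by gene length, BCL2 over BID was 2.59, 2.69 and 2.69 in knockout libraries, against 9.65, 8.22 and 8.10 in control libraries. The value near 1 therefore depends on the gene lengths used, and the fold does not. BCL2A1 over BID was 0.273, 0.164 and 0.199 in knockout libraries, against 0.905, 0.873 and 1.18 in control libraries. It was 4.71-fold lower in knockout (log2 change -2.24). That neither ratio overlapped between groups follows from the members' own values, BID being above and the others below all control libraries. The log2 change of each of these ratios is the difference of the members' own log2 fold changes apart from the pseudocount, and gene length does not affect it.

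The anti-apoptotic members did not separate from each other in the same way. BCL2A1 over BCL2 was 0.279, 0.161 and 0.196 per kb in knockout libraries, against 0.248, 0.281 and 0.384 in control libraries. SETD8 knockout 1 lay above control 1, so the groups overlapped, and a steeper fall of BCL2A1 than of BCL2 was not separated from the spread between libraries (log2 change -0.54, from -0.75 to -0.36 with each library left out).

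Over the listed anti- and pro-apoptotic genes the shift was smaller. The summed level per kb of the 5 listed anti-apoptotic genes was 1443, 1448 and 1460 in knockout libraries, against 2111, 2041 and 2046 in control libraries. The summed level of the 6 listed pro-apoptotic genes (BAX, BAK1, BID, BBC3, PMAIP1 and BIK) was 2230, 2056 and 2028 in knockout libraries, against 2082, 2178 and 2059 in control libraries. The anti-apoptotic sum was thus lower in each knockout library while the pro-apoptotic sums overlapped, and their ratio was 0.690 ± 0.0384 in knockout and 0.982 ± 0.0399 in control libraries, 1.42-fold lower in knockout. BCL2 made up 21.0% of the anti-apoptotic sum in knockout and 27.3% in control libraries, BCL2A1 4.42% in knockout and 8.32% in control, and MCL1 56.6% in knockout and 45.8% in control. BID made up 14.5% of the pro-apoptotic sum in knockout and 8.24% in control libraries. Unlisted genes such as BCL2L11 and BAD are not in these sums. The summed genes had all passed the authors' test on these same libraries, so the ratio describes the listed genes and not the whole family.

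**Figure D3:**
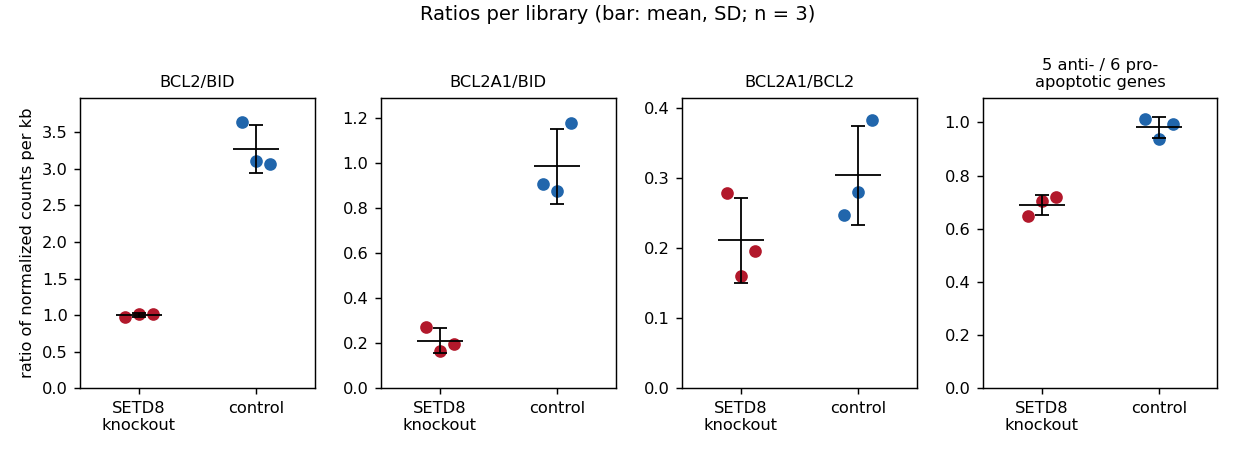
Ratios of normalized counts per kb within each library (y axes, from 0, a different range in each panel), with points for the 3 SETD8 knockout and 3 control libraries and bars for mean and SD. BCL2 over BID is near 1 in knockout and above 3 in control libraries, BCL2A1 over BCL2 overlaps between groups, and the summed ratio of 5 anti- to 6 pro-apoptotic genes is 0.690 in knockout and 0.982 in control libraries.

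Over the family, BCL2, BCL2A1 and BID included, the listed anti-apoptotic genes were all lower, and the pro-apoptotic genes went both ways. Of 6 anti-apoptotic genes written in the list 5 were tested, and 0 were higher and 5 lower. Over all tested genes 47.3% were called higher and 46.7% lower, and the count of each family list is to be read beside these shares. The median log2 fold change of these 5, BCL2 and BCL2A1 among them, was -0.68, beside 0.14 over all tested genes. BCL2L1, which encodes BCL-XL, fell to 473 ± 5.29 in knockout, against 757 ± 52.2 in control libraries (log2 fold change -0.68, adjusted p = 1.50e-06). BCL2L2, which encodes BCL-W, fell to 494 ± 49.0 in knockout, against 644 ± 70.5 in control libraries (log2 -0.38), and it shares its locus with the read-through gene BCL2L2-PABPN1, so its count is uncertain. MCL1 fell least, to 3589 ± 88.9 in knockout, against 4140 ± 214 in control libraries (log2 -0.21, adjusted p = 0.0060).

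The effectors BAX and BAK1, which form the pore, were both higher by small margins. BAX had 1062, 982 and 957 normalized counts in knockout libraries, against 795, 942 and 823 in control libraries (log2 0.23, adjusted p = 0.028). The authors' own adjusted p for BAX was 0.054, above the threshold of 0.05. BAK1 averaged 809 ± 27.7 in knockout and 671 ± 48.4 in control libraries (log2 0.27, adjusted p = 0.012). Both calls ended without control 1 (log2 0.18 for BAX and 0.21 for BAK1, adjusted p = 0.14 and 0.068). That of BAX also ended without control 3 (0.21, adjusted p = 0.11), without SETD8 knockout 1 (0.19, 0.12), without SETD8 knockout 2 (0.24, 0.060) and with upper-quartile scaling (0.19, 0.069), and with the trend of neighbouring genes removed BAX turned to -0.046 and BAK1 was at 0.081, uncalled. BAK1 also lost its call, as BAX did, with the gene length trend removed (0.16 and 0.14).

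Among BH3-only genes 4 of 8 written were tested, and 2 were higher and 2 lower, with a median of -0.024. BID was joined by BIK, a BH3-only protein of the endoplasmic reticulum, which rose to 463 ± 26.3 in knockout, against 290 ± 11.1 in control libraries (log2 0.67, adjusted p = 2.12e-05). BBC3, which encodes PUMA, fell to 150.4 ± 34.1 in knockout, against 475 ± 5.71 in control libraries, and PMAIP1, which encodes NOXA and binds MCL1 and BCL2A1, fell to 1153 ± 147 in knockout, against 1891 ± 139 in control libraries (log2 -1.68 and -0.72). BIK lost its call with the trends of neighbouring genes and gene length both removed (log2 0.15, adjusted p = 0.61). BID and BIK thus differed in direction from BBC3 and PMAIP1.

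Of the other BCL2-related genes 1 was higher, 2 were lower and BNIP3, a mitophagy receptor, was not called. BCL2L12 rose to 636 ± 69.2 in knockout, against 448 ± 22.9 in control libraries (log2 0.50), and was at 0.19 (adjusted p = 0.25) with the neighbouring trend removed. BNIP3L, also a mitophagy receptor, fell to 2382 ± 144 in knockout, against 3087 ± 88.1 in control libraries, and BCL2L13 fell to 1827 ± 46.2 in knockout, against 2299 ± 38.6 in control libraries. BNIP3 averaged 2378 ± 157 in knockout and 2145 ± 38.3 in control libraries (log2 0.15, adjusted p = 0.074), and it passed without SETD8 knockout 3 (0.20, 0.013), which makes 2 higher genes in this list, and with the neighbouring trend removed (0.74, 2.84e-09). BCL2L14 was below the filter, at 0.347 in knockout and 5.33 in control libraries. Over all 4 lists 5 genes were higher and 9 lower of 15 tested, beside 47.3% higher and 46.7% lower over all tested genes. Without control 1 the higher count was 3. How counting used strand is not given, so reads cannot be told apart from those of genes on the opposite strand for BCL2, BBC3, BCL2L1, BCL2L2, BCL2L12, BAK1, BNIP3 and BNIP3L, and further on for BAG1, STAT5B, TNFRSF10A, TRADD, RIPK1, CFLAR, HTRA2, DFFA and XIAP.

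**Figure D4:**
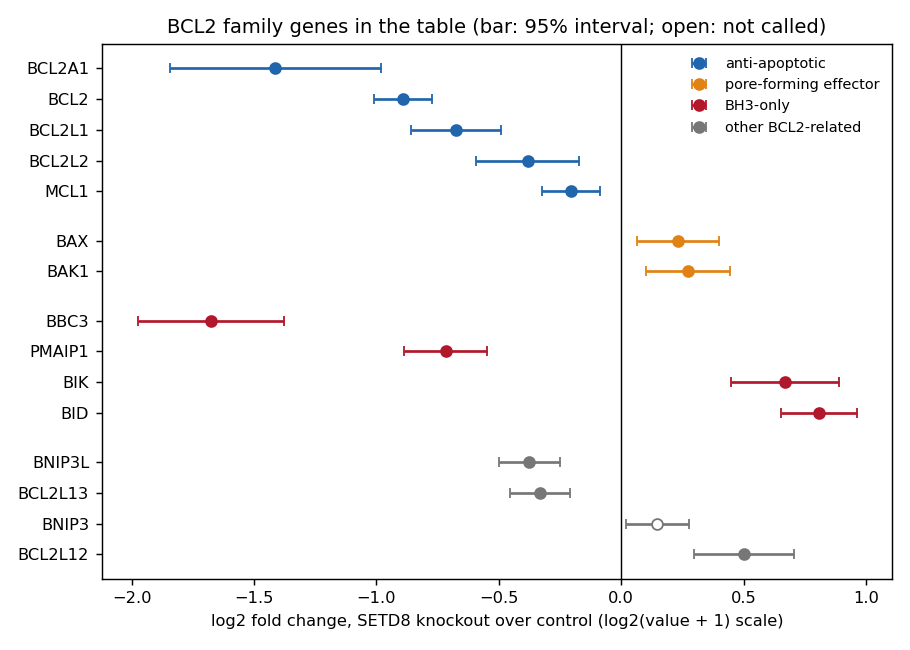
Log2 fold changes of log2(value + 1), knockout relative to control (x axis), for the 15 tested BCL2 family genes, by role, with 95% intervals. All 5 anti-apoptotic genes are below 0, from -1.41 for BCL2A1 to -0.21 for MCL1, BAX and BAK1 are above 0, and the BH3-only genes run from -1.68 for BBC3 to 0.81 for BID; BNIP3 (open point) was not called.

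In the death receptor arm, which leads to the cleavage of BID, 5 of 8 tested genes were higher and 3 lower (median log2 fold change 0.28). Over all tested genes 47.3% were called higher and 46.7% lower, with a median of 0.14. The counts of this list and of those after it are to be read beside these shares and are no pattern by themselves. TNFRSF10A, the TRAIL receptor DR4, rose to 120 ± 12.8 normalized counts in knockout, against 45.5 ± 5.94 in control libraries (log2 1.38, adjusted p = 2.14e-05). The kinase RIPK1 rose 1.29-fold and the adaptor TRADD 1.30-fold, while CFLAR, the inhibitor of caspase-8 known as c-FLIP, fell 1.26-fold. CASP8 itself, named after its values were seen, was 622 ± 20.2 in knockout and 505 ± 20.2 in control libraries (log2 0.30, adjusted p = 0.0094). CASP10, among the 3 lower genes, is named only because the authors' own adjusted p for it was 0.064, above the threshold. TRADD lost its call without control 3, SETD8 knockout 2 or SETD8 knockout 3 (log2 0.33, 0.39 and 0.34), and CFLAR without control 3 or SETD8 knockout 2 (-0.30 and -0.28), where the lower count was 1. With the gene length trend removed CFLAR was at -0.040, and TRADD was at 0.014 with the neighbouring trend removed.

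Downstream of the family, 4 of 5 tested genes were higher and 1 lower, with a median of 0.23, and 2 were higher without SETD8 knockout 1. HTRA2, a protease released from mitochondria, and AIFM1, the apoptosis-inducing factor, rose 1.27-fold and 1.26-fold. CYCS, cytochrome c, rose to 4247 ± 464 in knockout, against 3603 ± 38.6 in control libraries (log2 0.23, adjusted p = 0.0074), and lost its call without SETD8 knockout 1 (0.15, adjusted p = 0.058); it has processed pseudogenes that can share its reads. DFFA, which holds back the apoptotic nuclease, fell 1.26-fold. APAF1, among the 4 higher genes, is named only because the authors' own adjusted p for it was 0.061, above the threshold. With the neighbouring trend removed AIFM1 was at 0.032 and not called, CYCS turned to -0.29, and the list had 1 higher and 2 lower genes.

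Of the inhibitors of apoptosis proteins 3 were tested, with 1 higher and 2 lower. BIRC2, which encodes cIAP1, fell to 832 ± 5.31 in knockout, against 1224 ± 92.5 in control libraries (log2 -0.55). BIRC5, which encodes survivin and peaks in mitosis, rose to 2851 ± 228 in knockout, against 2268 ± 46.6 in control libraries (log2 0.33). XIAP, an inhibitor of caspases, was called lower (log2 -0.26, adjusted p = 0.020), but SETD8 knockout 1 at 935 lay above control 2 at 925. Its call ended without control 1, control 3, SETD8 knockout 2 or SETD8 knockout 3 (log2 -0.18, -0.26, -0.23 and -0.22), which leaves 1 lower gene, and with the gene length trend removed (-0.11).

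Among partners of the family 3 of 6 tested genes were higher and 3 lower. BAG1, a co-chaperone that binds BCL2, rose to 2527 ± 96.8 in knockout, against 1205 ± 25.4 in control libraries (log2 1.07, adjusted p = 5.25e-12). MTCH2, the mitochondrial receptor for cleaved BID, rose to 2828 ± 267 in knockout, against 1814 ± 74.6 in control libraries (log2 0.64), so it and BID were both higher. VDAC2, a channel that binds BAK1, rose 1.34-fold and BAG3, a co-chaperone, fell 1.65-fold. With the neighbouring trend removed VDAC2 and BAG3 lost their calls (log2 0.11 and -0.029), and MTCH2 did so with both trends removed (0.16, adjusted p = 0.12).

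Of 13 transcription factors known to act on the 3 genes 8 were tested, and 1 was higher, 5 lower and 2 not called. SPI1 (PU.1), an activator of BCL2A1 in myeloid cells, rose to 3563 ± 134 in knockout, against 2474 ± 134 in control libraries (log2 0.53). BCL2A1 fell, and any part of SPI1 in its change was not tested. STAT5B, which like STAT3 and STAT5A relays cytokine signals to anti-apoptotic genes, fell to 2810 ± 87.1 in knockout, against 5148 ± 99 in control libraries (log2 -0.87). STAT3 and STAT5A fell 1.75-fold and 1.51-fold. All STAT genes here lie on chromosome 17, and with the neighbouring trend removed STAT5A was at log2 -0.081 (adjusted p = 0.57), STAT3 at -0.29 and STAT5B at -0.36. With both trends removed STAT3 was at -0.19, STAT5B at -0.32 and SPI1 at -0.014. Without control 2 the higher count was 2.

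Each member was set beside the other tested genes within 5 Mb. Around BCL2, 14 genes had a median log2 fold change of -0.021, 6 called higher and 7 lower. Its closest listed genes on either side, PHLPP1 and KDSR, fell as well, with log2 fold changes of -0.65 and -0.67, while SERPINB8 further on rose (1.38). PMAIP1, of the BCL2 family, lies on the same chromosome at -3.32 Mb, counted towards lower coordinates. With the median of these 14 genes taken out BCL2 was at -0.87, near its own -0.89. This step takes out only that small median, and not a change shared with PHLPP1 and KDSR alone.

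Around BCL2A1, 44 genes had a median of 0.22, with 21 called higher and 16 lower, and 2 of the 44 had a lower log2 fold change than BCL2A1. The closest tested genes, TMED3 and FAH, were at 0.85 and 0.34, both higher in knockout; ARNT2 and RNU6-415P, also close, were below the filter. FAH lost its call with the neighbouring trend removed (0.14). BCL2A1 itself was at -1.64 there.

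Around BID, 42 genes had a median of 0.35, with 25 called higher and 17 lower, and 5 had a larger log2 fold change. The gene next to BID is a member of the same family, BCL2L13, whose end lies 3282 bases from that of BID on the opposite strand. BCL2L13 fell (log2 -0.33) where BID rose (0.81). Further out ATP6V1E1 was at 0.27, TUBA8 at 1.497 with few reads (16.7 in knockout and 4.99 in control libraries) and DGCR2 at 0.75. ATP6V1E1 turned to -0.097 with the neighbouring trend removed, and TUBA8 lost its call with any 1 of control 1, 2 and 3 or SETD8 knockout 1 and 2 left out (log2 1.24 to 1.63).

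Removing the neighbouring trend also moved other genes by over 1.5 times while they kept their direction and call. The log2 fold change was larger in size for BCL2L2 (-0.69), MCL1 (-0.45), BCL2L13 (-0.69), BNIP3L (-0.74), KMT5A (-0.69), RIPK1 (0.70), HTRA2 (0.65), DFFA (-0.67), BIRC5 (0.75) and XIAP (-0.64). It was smaller for BIK (0.32), MTCH2 (0.28), SPI1 (0.17) and DGCR2 (0.40). BCL2L13 was at -0.20 with the gene length trend removed, and TMED3 at 1.27 with both removed.

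**Figure D5:**
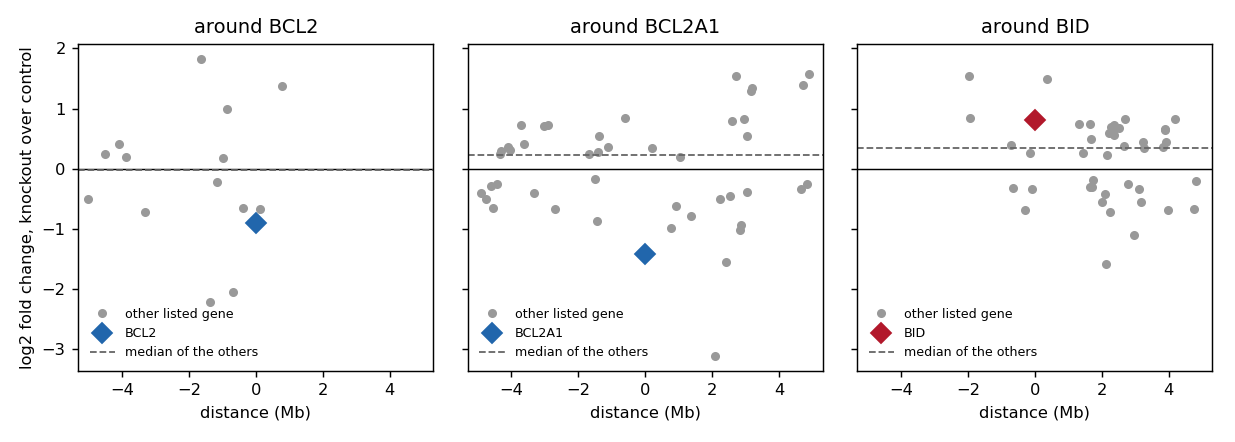
Log2 fold changes, SETD8 knockout over control (y axis), of tested genes within 5 Mb of BCL2, BCL2A1 and BID (x axis, distance in Mb), with diamonds for the member and dashed lines for the median of the others. BCL2A1 at -1.41 lies far below the median of 0.22 around it, BCL2 at -0.89 lies below -0.021, and BID at 0.81 lies above 0.35.

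The genes most like each member were sought among the 6094 protein-coding genes whose mean reached 100, by the Euclidean distance of log2 profiles over the 6 libraries centred on the control mean. For BCL2 they were ADD3, CYB561 and JADE3 (distances 0.0691, 0.0745 and 0.0824; log2 fold changes -0.90, -0.92 and -0.87). For BCL2A1 they were STN1, PRKAG1 and WNT3, at larger distances of 0.415, 0.466 and 0.486 (log2 fold changes -1.21, -1.33 and -1.40). For BID they were ICAM1, MEX3A and DNAJC5 (0.0674, 0.0947 and 0.0963; log2 fold changes 0.83, 0.81 and 0.81). ICAM1 had 1229, 1212 and 1253 normalized counts in knockout libraries, against 640, 710 and 724 in control libraries. All of these genes were picked for their likeness to a member, so their similar log2 fold changes follow from the choice. None of these 9 genes shares a chromosome with the member it resembles. With the neighbouring trend removed, log2 fold changes were -0.069 for ADD3, which was no longer called, -0.26 for CYB561, -0.54 for STN1, -0.79 for WNT3 and 0.52 for ICAM1. With both trends removed ADD3 was at 0.026.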

How the data were processed

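RNA of 3 SETD8 knockout and 3 control libraries was compared. The submitters' processing notes name hg38, HISAT2 and DESeq2; the counter, and all versions, were not given there. Per the labels' protocols, mRNA was selected on poly-T beads and libraries came from a directional kit. Per the file headers, the authors deposited 1 column of normalized counts for each library, a signal that is the read count divided by a size factor. The deposited log2 fold change, p-value and adjusted p-value are theirs. Dividing by the value of 1 read gave whole numbers, within 0.001, for 100% of values in each library; in SETD8 knockout 2 and control 3, where 1 read is worth 0.993 and 0.991, recovery is less certain. The authors' gene length, a further column, gave levels per kilobase. Strand use in counting is not given.

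The 7516 genes with a mean of at least 10 were tested by limma-trend on log2(value + 1) in R 4.3.3 with limma 3.58.1, without a block and two-sided. Such fold changes understate the change of low genes. Benjamini-Hochberg adjustment ran over the 19860 genes that the authors' own adjusted p-values imply, and a call means adjusted p below 0.05. The fit was tested on simulated counts in which few genes changed, unlike the genes here, so that test does not bear on the calls made here. Some genes of the mitochondrial list are not reported here and were left out of its counts. The members and gene lists were chosen with earlier results of these data known. Named genes were the members, KMT5A, listed family genes, from each other list up to 4 called genes of largest change whose mean reached 50, the 3 nearest profiles and the 2 closest listed genes on each side. Of the 7983 genes, 7982 had the same coordinates in GENCODE 29. Alternatives were TMM and upper-quartile scaling, edgeR 4.0.16 and DESeq2 1.42.0 on recovered reads (7166 and 6890 genes called, beside 7070), other filters and pseudocounts, a replicate block, leaving out each library, and removal of trends with gene length and neighbouring genes.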

Additional observations from a re-analysis of the deposited data

How the results depend on the processing

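The members kept their direction and their call under all 19 alternatives, with log2 fold changes of -0.93 to -0.72 for BCL2, -1.77 to -1.24 for BCL2A1 and 0.45 to 0.85 for BID, and adjusted p of at most 0.00028. Every alternative used these same libraries and genes that had already passed the authors' test on them. The alternatives therefore show how far the values depend on processing and are no independent support for the calls. With the trend of neighbouring genes removed, 2257 genes were called higher in place of 3557, 4705 in all in place of 7070, and 3 family genes were higher in place of 5; with the gene length trend removed too, 2256 genes and 2 family genes were higher. Leaving out each library gave 3 to 6 higher family genes. Not divided by gene length, the log2 change was -1.71 in place of -1.81 for BCL2 plus BCL2A1 over BID, and -0.58 in place of -0.51 for the summed ratio. With the neighbouring trend removed the log2 fold change turned to -0.046 for BAX, -0.29 for CYCS and -0.097 for ATP6V1E1. With both removed it turned to -0.15 for BAX, -0.31 for CYCS, -0.18 for TRADD, -0.014 for SPI1, 0.026 for ADD3 and -0.15 for ATP6V1E1; the cause was not tested. Same-numbered libraries did not deviate together (correlations 0.045, 0.044 and -0.044), and a replicate block changed no call of a named gene, with 7091 genes called and an adjusted p of 1.40e-13 for BCL2, 1.24e-06 for BCL2A1 and 3.01e-10 for BID. Of the members BCL2A1 rests on the fewest reads, and the part of depth in its spread was not tested.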
